A study of Homo sapiens with 41 samples.

Results

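The genes described here are 43 human ribosome biogenesis factors, the proteins that transcribe, cut, modify and fold ribosomal RNA in the nucleolus and assemble it with ribosomal proteins. They were taken by symbol from a given list, and not by a threshold on these data. Members and lists were, however, chosen with earlier results of these data known, so the choice is not independent of them. All 43 were listed in each of the 6 deposited expression tables, which hold 23368 genes each apart from 1 of 21595, and all 43 had a mean of at least 10 normalised reads in every table. By role, 4 belong to RNA polymerase I transcription, 3 to the box C/D and 3 to the box H/ACA particles that modify ribosomal RNA, 5 are general nucleolar proteins, 7 belong to the small subunit processome, 5 act late on the small subunit and 16 on the large subunit.

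RNA polymerase I makes 1 long precursor RNA in the nucleolus, where small nucleolar ribonucleoproteins guide its methylation and pseudouridylation. A large complex, the processome, cuts out the small subunit part, while a separate set of GTPases, helicases and scaffold proteins matures the large subunit. The pathway is among the costliest of a growing cell, is driven by growth signals that include the ERK kinases and the transcription factor MYC, and enlarged nucleoli are a familiar sight in melanoma and other cancers.

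The series comprised 41 samples in 15 groups and concerned the response of tumour cells to drugs against their driver kinase, and the response of resistant cells to the tumour they grow in. The human melanoma lines A375, Colo800 and UACC62 were given vemurafenib, which inhibits mutant BRAF, while the human lung cancer line H3122 was given crizotinib, an ALK inhibitor. Cultures were kept in medium with reduced serum during dosing and gave total RNA. For A375 the groups were vehicle, 6 h and 48 h at 0.1 µM (n = 3 in each). For Colo800 and UACC62 they were vehicle and 48 h at 1 µM, and for H3122 vehicle and 48 h of crizotinib at 0.3 µM (n = 2 per group). Mice bearing subcutaneous A375 tumours got vehicle or vemurafenib, 75 mg/kg in 10 doses (4 tumours per group). From tumours of A375R, the vemurafenib-resistant derivative, there were 4 groups of 3: A375R alone and A375R mixed with A375, each with vehicle or with the same 10 doses. The division into alone and mixed is how the short codes in the titles were read together with the growth protocol. Tumour RNA was ribosome-bound: lysates were captured on GFP beads, and A375R titles name the ribosomal protein RPL10a. The labels leave unsaid which cells in the mixed tumours are tagged, and whether replicates were separate cultures or animals. P-values then reflect sample-to-sample spread alone, possibly of a technical kind.

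Depth ran from 8063754 to 42843612 reads per library, and the fewest reads on any member in any library were 11, on PPAN. SOX10, a marker of the melanocyte lineage, stood at 8722 to 10858 normalised reads (reads divided by a size factor for the library) in vehicle A375 cultures and at 0 to 0.978 in H3122, which carried the lung marker NKX2-1 at 3149 to 3422. In A375R tumours SOX10 was low, at 55.8 to 129 in vehicle tumours of A375R alone. Summed over 8 melanocytic markers that include SOX10, vehicle A375 tumours stood at 1201 to 1777 and vehicle A375 cultures at 9473 to 11903. These tables were normalised separately, so the levels are not a comparison of the lines. In every tumour library PTPRC and CD3E, of a list of 6 leukocyte markers, and CDH5, of 5 endothelial markers, were at 0 or below 5 normalised reads, while other markers of these lists were not. CD68 held most of the leukocyte sum in A375R tumours, at 7511 to 9693 in vehicle tumours of A375R alone, and was also listed at 329 to 869 in vehicle A375 cultures. The inhibitors lowered the outputs of ERK signalling: 11 of 12 such genes fell in A375 by 6 h, and at 48 h 11 of 12 in A375 and 12 of 12 in each of Colo800, UACC62 and H3122. In these bulk samples fewer cells of a kind and less RNA per cell cannot be told apart, and values are relative to the whole library.

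In A375 cells at 48 h of vemurafenib, 42 of the 43 biogenesis genes fell and none rose (limma on log2(value + 1), two-sided, Benjamini-Hochberg adjusted p under 0.05 over all genes tested). Of all 13816 genes tested, 25.6% were called lower and 24.3% higher, which is the background to the members' counts. The median log2 change of the 43 was -1.02, and the medians over all genes tested lay between -0.02 and 0.01 in all 12 comparisons. The change ran from -2.02 for LYAR to -0.21 for NOB1, the member that did not pass. A fall of at least 2-fold was called for 22 members, against 10.9% of all genes.

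**Figure D1:**
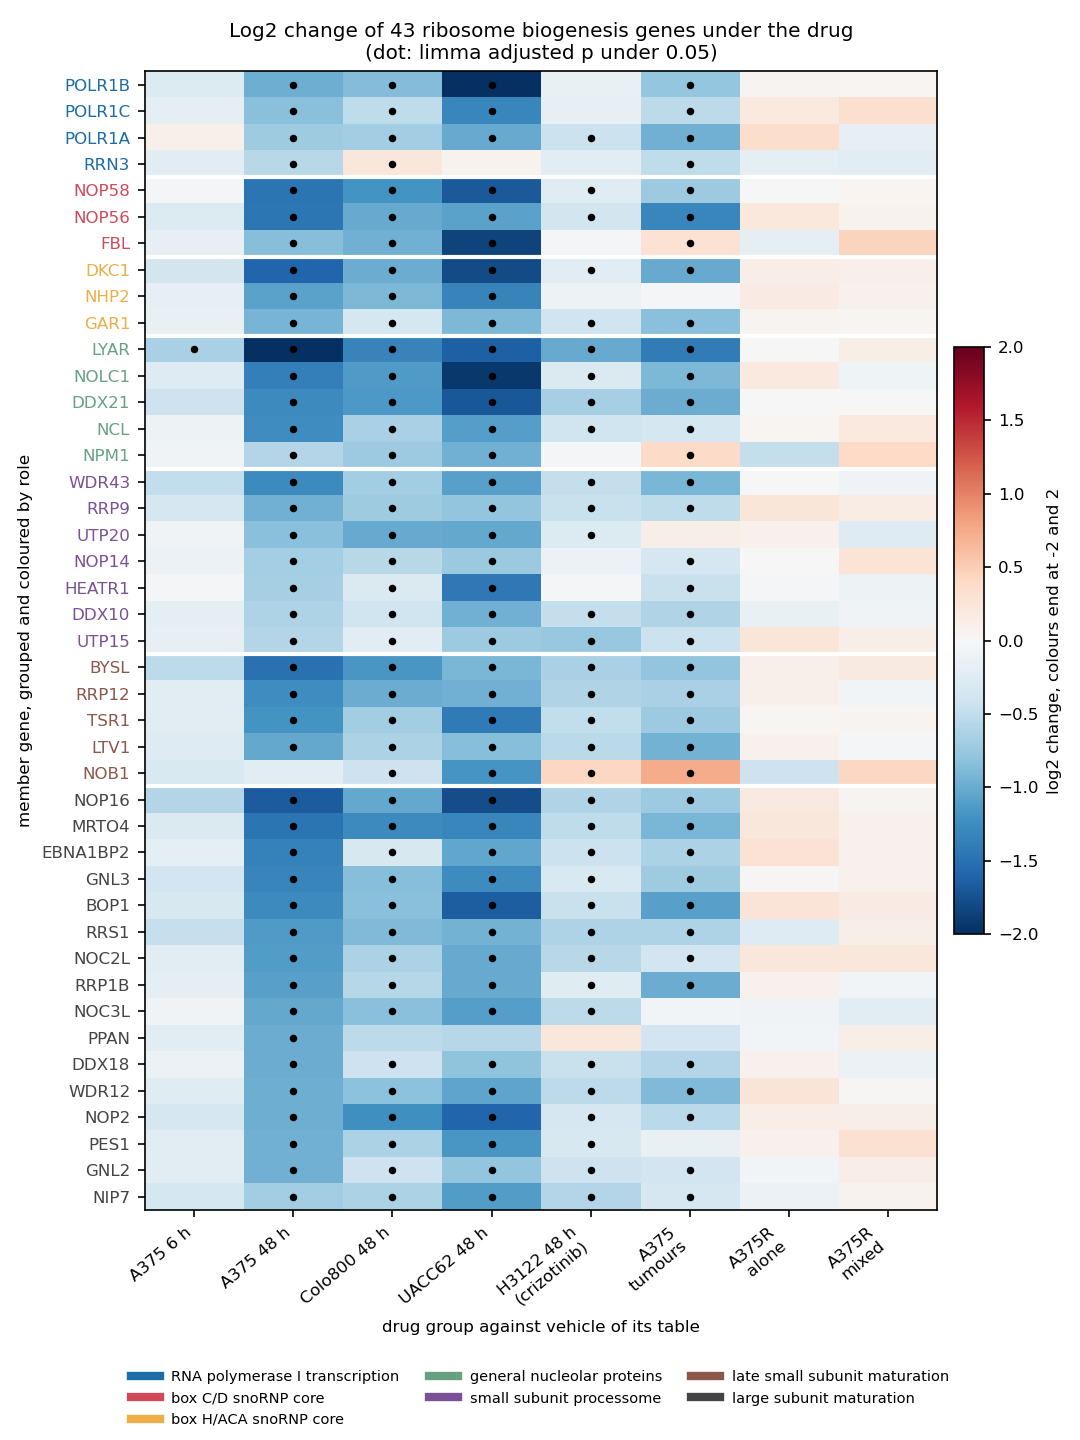
Log2 change of the 43 members (rows, grouped and coloured by role) under the drug against vehicle of the same table (columns), blue for lower and red for higher, with a dot where the limma adjusted p was under 0.05. In the 3 melanoma cultures at 48 h every cell is blue except RRN3 in Colo800 and UACC62, and the A375R columns at the right hold no dot. NPM1 in A375 tumours is red here but changes sign under quantile normalisation (-0.20).

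All 4 RNA polymerase I genes fell, with a median of -0.78. POLR1B, the second largest subunit of the enzyme, counted 1210.2, 1287 and 1149 normalised reads in the 3 vehicle libraries and 786, 543 and 544 at 48 h. Every treated library lay below every vehicle library, and the change was -0.98 ± 0.15 (log2, ± SE; limma adjusted p = 4.19e-04). RRN3, which recruits the polymerase to the ribosomal gene promoter, went from 1336, 1206 and 1314 to 926, 849.9 and 860.2 (-0.55 ± 0.10), again without overlap. POLR1A, the largest subunit, and POLR1C, a subunit shared with RNA polymerase III, fell by 0.72 and 0.84.

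All 6 genes of the modification particles fell. NOP56, a core scaffold of the box C/D particle, counted 3509.8, 2612 and 3035 in vehicle and 1122, 1238 and 984 at 48 h, a change of -1.45 ± 0.15. Its partner NOP58 changed by -1.46 ± 0.11, and FBL, fibrillarin, the methyltransferase of the same particle, by -0.85 ± 0.11 (3112, 2559 and 2861 in vehicle, 1500.3, 1713 and 1508 at 48 h). For each of these genes the groups did not overlap. In the box H/ACA particle, DKC1, the pseudouridine synthase that is mutated in dyskeratosis congenita, fell to 0.334 of vehicle (-1.58 ± 0.16), NHP2 changed by -1.07 and GAR1 by -0.93.

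All 5 general nucleolar proteins fell. LYAR, a zinc finger protein of the nucleolus that promotes precursor processing, had the lowest change of the 43: it counted 1126, 919 and 987 in vehicle and 226, 268 and 251 at 48 h. The treated libraries were all below the vehicle libraries, at 0.247 of vehicle (-2.02 ± 0.13, limma adjusted p = 2.65e-06). DDX21, an RNA helicase that links RNA polymerase I output to processing, changed by -1.27 ± 0.16, and NOLC1, a chaperone of the modification particles, by -1.36 ± 0.11. NCL, nucleolin, the abundant nucleolar RNA-binding protein, counted 14574, 10988 and 10697 in vehicle and 5286, 5236 and 4666 at 48 h, with no overlap (-1.24 ± 0.16). NPM1, nucleophosmin, a histone and ribosome chaperone, moved least of the 5, from 14210.3, 11334 and 12363 to 8650.1, 8624 and 7993 (-0.58 ± 0.13, limma adjusted p = 0.00444).

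All 7 small subunit processome genes fell, with a median of -0.68. WDR43 fell most (-1.27 ± 0.14) and UTP15 least (-0.59 ± 0.14), both being WD-repeat proteins of the subcomplex that the processome starts from. Among the 5 late factors, BYSL, which stays with the small subunit precursor into late steps, went from 597, 518 and 534 to 191, 209 and 187 (-1.49 ± 0.14). The export-stage factors RRP12 and LTV1 fell by 1.24 and 1.02, and the GTPase-like TSR1 fell to 0.436 of vehicle. NOB1, the endonuclease that makes the last cut of small subunit RNA, was not called. It counted 1292, 1415 and 1503 in vehicle and 1318, 1247 and 1089 at 48 h, ranges that overlap (-0.21 ± 0.11, limma adjusted p = 0.146). Against the 6 h libraries NOB1 was at 0.09, and it was again the single member not called in that comparison, where the other 42 were lower, NOP58 (-1.43), LYAR (-1.37) and DKC1 (-1.22) most and RRN3 (-0.34) and NIP7 (-0.35) least (background 19.7% lower, 19.6% higher; median of the members -0.78).

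All 16 large subunit factors fell in A375, with a median of -1.05. NOP16, a nucleolar protein of the large subunit precursor, fell most (-1.66 ± 0.16), from 1271, 988 and 1255 to 338, 456 and 322. The members of the PeBoW complex, which is needed to process large subunit RNA, fell together: BOP1, which counted far fewer reads in this table than in that of A375R, changed by -1.27, PES1 by -0.97 and WDR12 by -0.98. MRTO4, which holds the place of the stalk protein on the precursor, changed by -1.46, the GTPases GNL3 (nucleostemin) and GNL2 by -1.31 and -0.96, and the RNA methyltransferase NOP2 by -0.97. NIP7, a factor of the late precursor, fell least (-0.70 ± 0.12).

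At 6 h most members lay slightly below vehicle, and LYAR alone passed the test. It counted 696, 559.8 and 675 at 6 h, all below the vehicle libraries (-0.65 ± 0.13, limma adjusted p = 0.0202). The background was 3.33% of genes lower and 1.07% higher. In all, 42 of 43 estimates were below 0, with a median of -0.22, and 12 members were lower at an unadjusted p under 0.05, against 9.89% of all genes. Replicate numbers pair the vehicle and 6 h libraries, and with the number as a block limma called 6 members lower, BYSL, DDX21, GNL3, LYAR, NOP16 and WDR43, against 6.69% of all genes. The lowest estimates after LYAR without the block were NOP16 (-0.59 ± 0.16, adjusted p = 0.0699) and BYSL (-0.52 ± 0.14, adjusted p = 0.0604). The highest were POLR1A (0.10), NOP58 (-0.03) and HEATR1 (-0.03). NCL was at -0.11, NPM1 at -0.07, FBL at -0.17, NOP56 at -0.27 and POLR1B at -0.27. The ERK output SPRY4, a feedback inhibitor, had already changed by -4.69 ± 0.24 and MYC by -2.76 ± 0.40, while MKI67, a marker of dividing cells, stood at 0.26 ± 0.30 (limma adjusted p = 0.730). LYAR lost its call without vehicle replicate 1 (limma adjusted p = 0.0647), without vehicle replicate 3 (0.0610) or without 6 h replicate 2 (0.103).

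**Figure D2:**
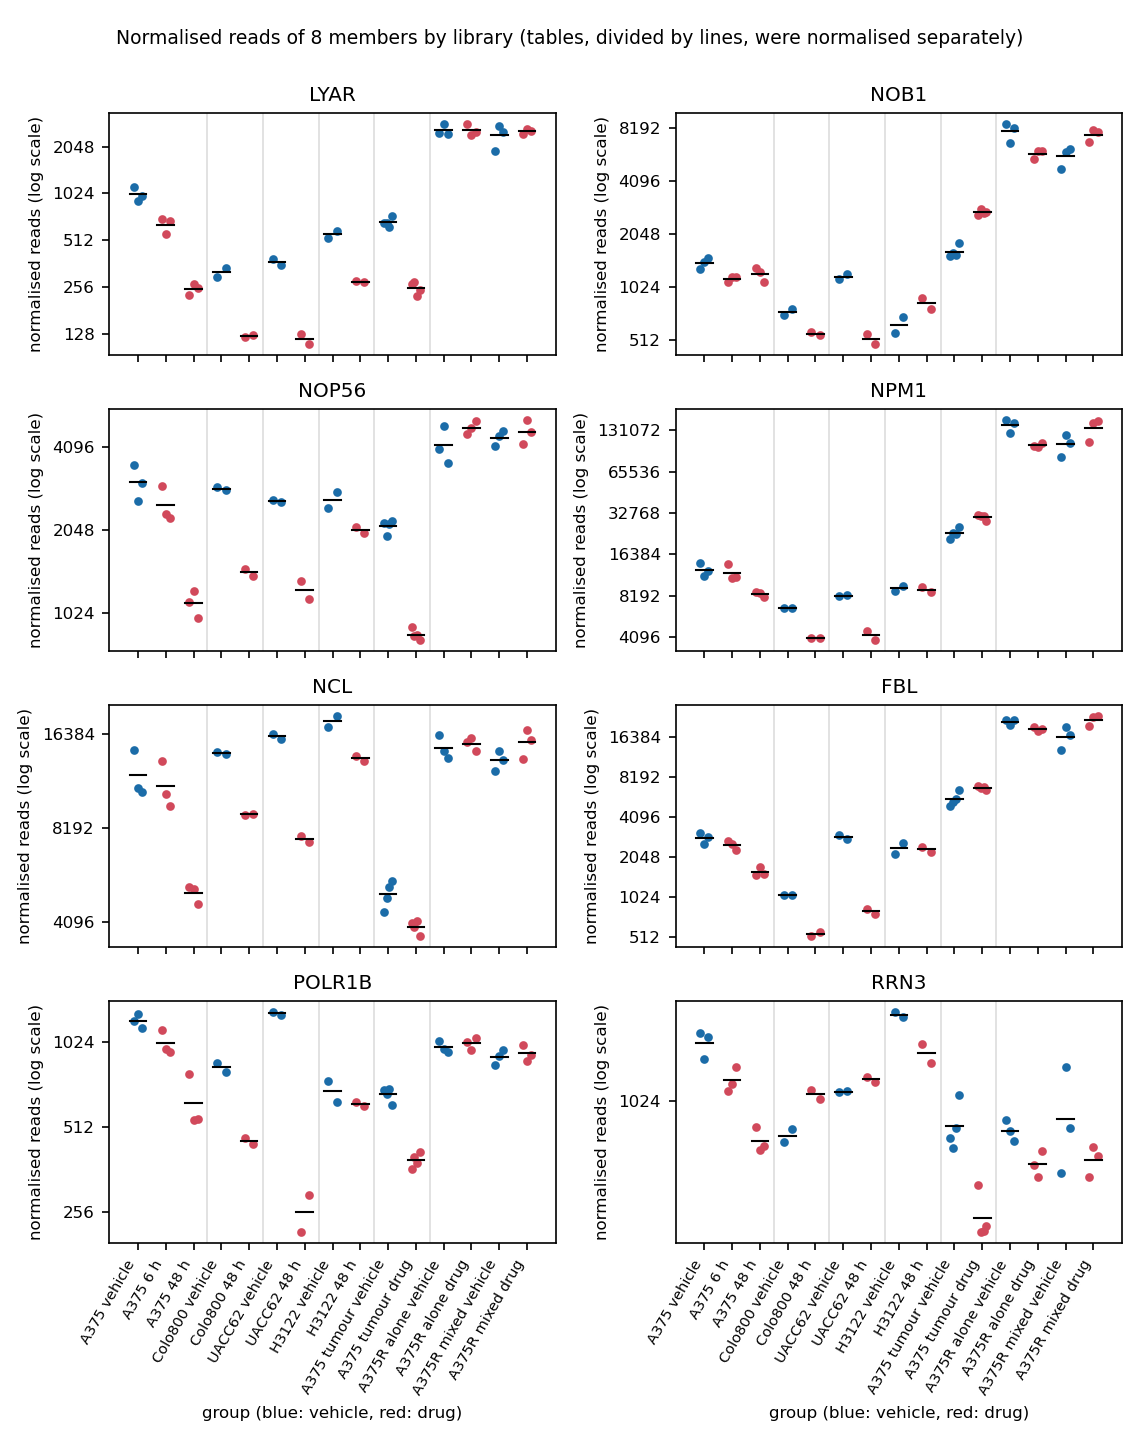
Normalised reads of 8 members in every library (log2-spaced axis), with black bars for group means, blue points for vehicle and red for drug, and grey lines between tables that were normalised separately. LYAR, NOP56, NCL and POLR1B at the left are lower under the drug in all 4 cultures and in A375 tumours, though the H3122 difference of POLR1B did not pass; NOB1, NPM1, FBL and RRN3 at the right differ in direction between tables, with NPM1 in A375 tumours turning to -0.20 under quantile normalisation.

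The other melanoma lines gave nearly the same picture. In Colo800, 41 members fell and 1 rose (background 37.3% lower and 36% higher), with a median of -0.71. LYAR was again lowest, at 298 and 338 in vehicle and 123 and 127 after vemurafenib (-1.34 ± 0.11, limma adjusted p = 2.31e-09), with no overlap. MRTO4 (-1.27) and NOP2 (-1.23) followed. NOP56 changed by -1.01, FBL by -0.96, POLR1B by -0.87, NPM1 by -0.72 and NCL by -0.65. UTP15 (-0.21) and HEATR1 (-0.29), a scaffold of the processome that also serves RNA polymerase I, fell least. The exception was RRN3, which rose from 876 and 919 to 1071 and 1034 (0.23 ± 0.05, limma adjusted p = 7.85e-04), both treated libraries being above both vehicle libraries. PPAN, a large subunit factor, was at -0.53 ± 0.30 and not called.

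In UACC62, 41 members fell and none rose (background 29.6% lower and 26.9% higher). The median of -1.09 was the lowest of the comparisons, and 29 members fell at least 2-fold, against 11.9% of all genes. POLR1B, at 1302 and 1279 in vehicle, stood at 217 and 295 after vemurafenib, which is 0.197 of vehicle (-2.35 ± 0.15, limma adjusted p = 3.15e-06). No other member in any comparison had a lower estimate. NOLC1 (-1.93) and FBL (-1.86, from 2973 and 2795 to 833 and 757) came next, and the late factor NOB1, uncalled in A375, fell here from 1131 and 1206 to 553 and 485 (-1.17 ± 0.11). NCL changed by -1.10, NPM1 by -0.97 and NOP56 by -1.07. RRN3 was at 0.07 ± 0.09 (limma adjusted p = 0.560), with 1061 and 1065 in vehicle and 1126 and 1104 under the drug, and PPAN at -0.57 ± 0.35; neither passed.

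H3122 cells differ in lineage, oncogene and drug, and the members' estimates lay nearer to 0 at the median. Under crizotinib 33 members fell and 1 rose (background 24% lower and 22.1% higher), with a median of -0.41. LYAR was lowest once more, at 529 and 590.0 in vehicle and 279 and 274 after crizotinib, without overlap (-1.01 ± 0.11, limma adjusted p = 1.40e-05). UTP15, with the smallest fall of the processome in each melanoma culture, followed at -0.75 ± 0.11, and DDX21 at -0.67 ± 0.10. Of the large subunit factors 15 of 16 fell, of the RNA polymerase I genes 1 of 4, POLR1A (-0.43). POLR1B was at -0.14, FBL at -0.03, NPM1 at -0.03 and HEATR1 at -0.03, none of which passed, while NOP56 (-0.36) and NCL (-0.39) did. PPAN was at 0.23 ± 0.34 and not called. NOB1 rose, from 559 and 689.8 to 884 and 769 (0.41 ± 0.12, limma adjusted p = 0.0128). Without crizotinib replicate 2 the members called were 22, and without crizotinib replicate 1 they were 23 and NOB1 was not among them (limma adjusted p = 0.129), as it was not with no filter on low values (0.0882).

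In A375 tumours, where the RNA was bound to tagged ribosomes, 35 members were lower under vemurafenib and 3 higher (background 34% lower and 34.2% higher), with a median of -0.61. LYAR was lowest, at 662, 659, 618 and 728 in the 4 vehicle tumours and 266, 274, 224 and 246 in the 4 treated tumours, all of them below (-1.40 ± 0.09, limma adjusted p = 7.92e-10). NOP56 counted 2169.5, 1946, 2164 and 2214 in vehicle and 914, 846, 856 and 821 under the drug (-1.30 ± 0.07), again without overlap. BOP1 (-1.09), DKC1 (-1.01) and DDX21 (-0.99) fell by similar amounts. All 4 RNA polymerase I genes fell, POLR1A by 0.96, POLR1B by 0.77 and RRN3 by 0.51. NCL fell too (-0.34 ± 0.08), from 4408, 4867, 5295 and 5545 to 4053, 3948, 4117 and 3685. Not called were PES1 (-0.15), NOC3L (-0.05), NHP2 (-0.05), PPAN (-0.38) and UTP20 (0.12).

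The members that rose in these tumours were NOB1, NPM1 and FBL. NOB1 went from 1543, 1597, 1553 and 1816 in vehicle to 2635, 2843, 2687 and 2719.8 under vemurafenib, every treated tumour above every vehicle tumour (0.74 ± 0.07, limma adjusted p = 1.07e-07). NPM1 went from 21015, 23494, 23125 and 25939 to 31619.6, 31058, 31196 and 28453, also without overlap (0.39 ± 0.09), but under quantile normalisation its estimate was -0.20 (limma adjusted p = 0.00282) instead. FBL went from 4949.9, 5258, 5574 and 6506 to 7019, 6687, 6824 and 6491 (0.28 ± 0.08, limma adjusted p = 0.00589), and the highest vehicle tumour lay just above the lowest treated one. Cultured A375 cells at 48 h of the same drug gave -0.21 for NOB1, -0.58 for NPM1 and -0.85 for FBL. Culture and tumour differ in RNA fraction, dosing and surroundings, which cannot be told apart. Of the cytosolic ribosomal protein genes, 72 of 77 rose in these tumours and 3 fell (median 0.83), which under quantile normalisation was 32 higher and 6 lower (median 0.08). Their share of reads was 16.3% to 18.4% in vehicle and 25.7% to 27.0% under the drug. In A375 culture at 48 h 17 of 77 fell and 1 rose (median -0.20), beside a background of 25.6% lower and 24.3% higher. Under quantile normalisation 9 fell and 1 rose in that culture (median -0.02). The part of the ribosomal protein share in the rise of NOB1, NPM1 and FBL was not tested. NPM1, RRN3 and NOB1 have near-identical processed or duplicated copies in the genome, so their counts are uncertain where reads could be split, and without strand information reads of antisense partners cannot be told apart for any member.

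**Figure D3:**
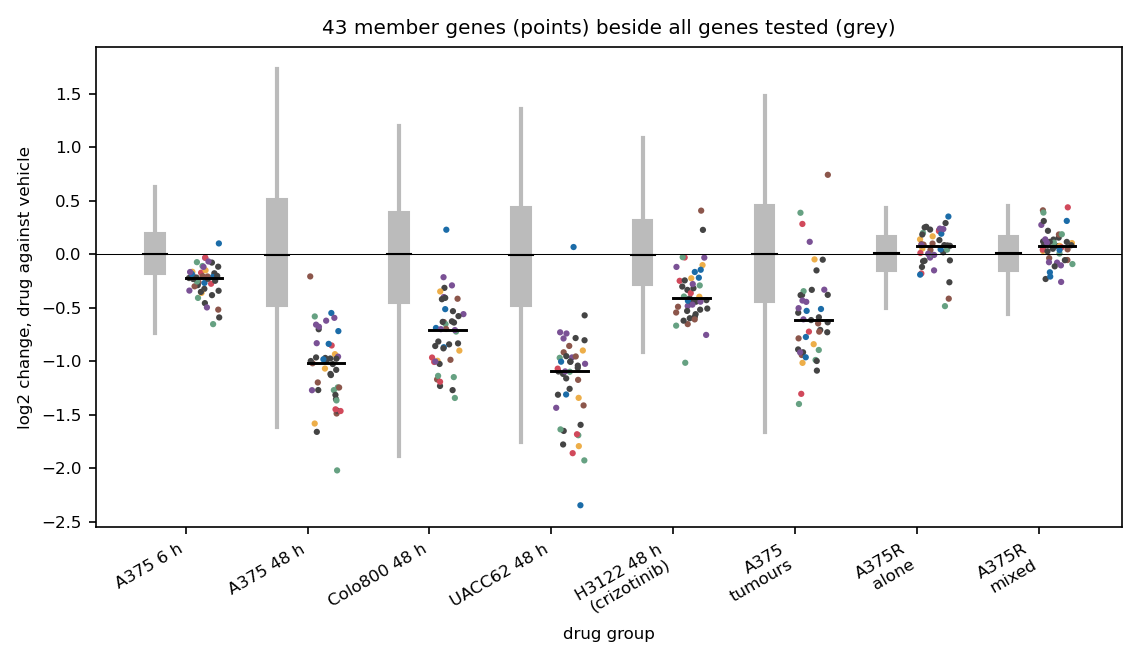
Log2 change of the 43 members (points, coloured by role as in the heat map, black bar at their median) beside all genes tested in the same comparison (grey box from the 25th to the 75th percentile, grey line from the 5th to the 95th, black bar at the median). Points sit mainly below the grey box in the 3 melanoma cultures at 48 h and around 0 in both A375R columns.

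Across the 5 comparisons of sensitive cells at the later time (A375, Colo800, UACC62, H3122 and A375 tumours), 30 of 43 members were called lower in all 5, 7 in 4, 3 in 3 and 3 in 2 or fewer. Of all 11665 genes tested in each of the 5, 7.76% were called lower in all 5. In the 3 melanoma cultures alone 40 members were lower in every line, against 15.7% of the 12386 genes tested in all 3. Members outside that set of 40 were NOB1, RRN3 and PPAN. PPAN had few reads (21.7 to 23.1 normalised reads in vehicle UACC62), shares its position with an annotated read-through gene, and was called in A375 but in none of the other 4 (limma adjusted p = 0.00488 in A375, with 63.0, 45.6 and 59.3 in vehicle and 27.3, 32.0 and 23.2 at 48 h). NOB1 was lower in 2 of the 5 and higher in 2. RRN3 was lower in 2 and higher in 1. All 5 comparisons come from tables with their own vehicle libraries, and a fall in 1 table beside no call in another was not tested as a difference.

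The members as a whole took a smaller share of all reads under the drugs. In A375 cultures their share was 0.775% to 0.947% in vehicle, 0.735% to 0.874% at 6 h and 0.422% to 0.470% at 48 h, so the 6 h libraries overlapped vehicle and the 48 h libraries did not. It was 0.454% in both vehicle libraries of Colo800 and 0.305% to 0.309% under vemurafenib, and 0.605% to 0.615% and 0.289% to 0.305% in UACC62. In H3122 it was 0.571% to 0.586% in vehicle and 0.504% to 0.505% under crizotinib, groups that did not overlap. In A375 tumours the share was 0.574% to 0.623% in vehicle and 0.447% to 0.466% under the drug. The members' summed normalised reads there overlapped, at 74201 to 85700 in vehicle and 69718 to 74858 under the drug. Cytosolic ribosomal protein genes took 16.3% to 18.4% of reads in these vehicle tumours and 25.7% to 27.0% in treated ones. The part of that rise in the members' smaller share was not tested. NPM1 weighs on these sums: it held 40.8% to 42.4% of the members' reads in treated A375 tumours, and without it the share there was 0.411% to 0.434% in vehicle and 0.258% to 0.269% under vemurafenib.

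**Figure D4:**
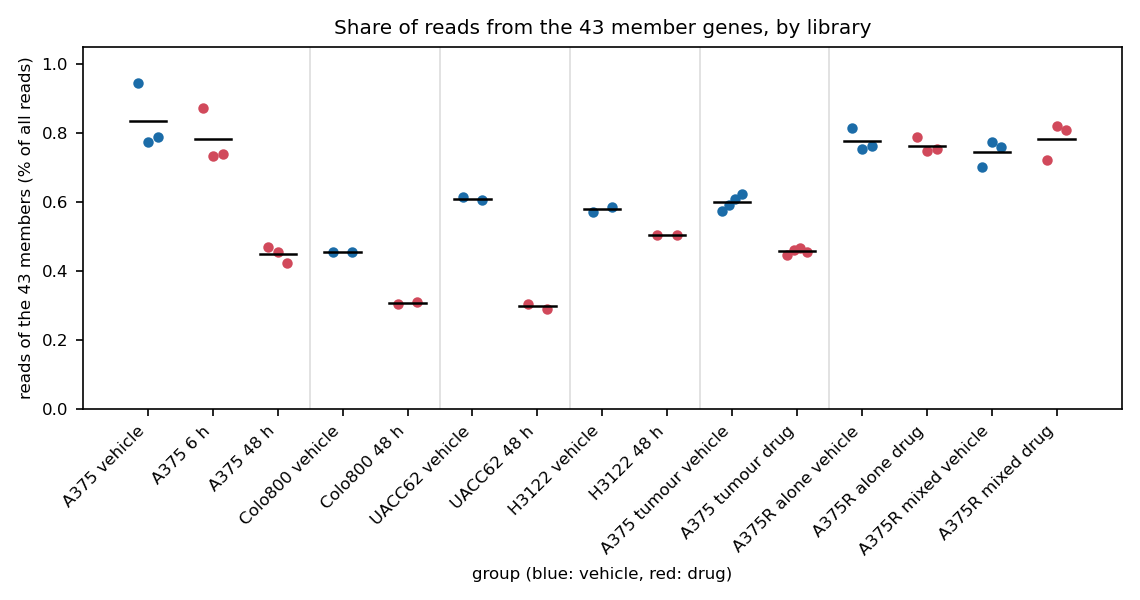
Reads on the 43 members as a percent of all reads in each library (points, blue for vehicle and red for drug, black bars at group means, grey lines between tables). The 48 h drug libraries of each culture and the treated A375 tumours lie below their vehicle libraries, while A375R groups overlap. In A375 tumours the members' summed normalised reads, not shown here, overlap between vehicle and drug.

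In A375R tumours no member passed in response to vemurafenib. With A375R alone limma called none of 43 (background 0.487% lower and 0.305% higher), the median was 0.08, and at an unadjusted p under 0.05, 3 members were lower and 3 higher, against 9.17% and 9.25% of all genes. edgeR called 0, and DESeq2 called NOB1 and NPM1 lower (background 3.16%), as did limma with these 2 groups fitted alone. LYAR was the lowest member in A375 at 48 h, Colo800, H3122 and A375 tumours, but not in UACC62. With A375R alone it counted 2504, 2844 and 2459 in vehicle and 2846, 2431 and 2536 under the drug, overlapping ranges (0.00 ± 0.12). NOP56 (0.22 ± 0.12), NCL (0.04 ± 0.11) and POLR1B (0.05 ± 0.10) were not called, nor was FBL (-0.18 ± 0.13). The estimates farthest from 0 were NPM1 (-0.48 ± 0.17, limma adjusted p = 0.147), NOB1 (-0.41 ± 0.12, adjusted p = 0.0932) and, above 0, POLR1A (0.35 ± 0.17, adjusted p = 0.264). Next came RRS1 (-0.26) below 0, and EBNA1BP2 (0.29) and BOP1 (0.26) above it, all large subunit factors. The A375 and A375R tumour tables were normalised separately, and the difference between their responses was not tested.

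With A375R mixed with A375 the members were again not called (background 2.23% lower and 1.24% higher; median 0.08). At an unadjusted p under 0.05, 0 were lower and 5 higher, against 9.92% and 10.2% of all genes; edgeR called 0, and DESeq2 called FBL and NOB1 higher (background 3%). The highest estimates were FBL (0.44 ± 0.13), NOB1 (0.41 ± 0.12) and NPM1 (0.39 ± 0.17), and the lowest UTP20 (-0.26 ± 0.14), NOC3L (-0.23) and RRN3 (-0.21). NCL was at 0.19, NOP56 at 0.07 and POLR1B at 0.04. LYAR counted 1918, 2778 and 2546 in vehicle and 2469.8, 2674 and 2579 under vemurafenib, which overlap. FBL passed without mixed vehicle replicate 2 (0.57, limma adjusted p = 0.0245). The members' share of reads was 0.754% to 0.814% and 0.747% to 0.790% in A375R alone under vehicle and drug, and 0.703% to 0.774% and 0.721% to 0.821% in mixed tumours, ranges that overlap within each kind.

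NOB1 was the 1 member of 43 whose drug response limma called different between the 2 kinds of A375R tumour, a count near the background given below. It counted 8636, 6759 and 8234 in vehicle tumours of A375R alone, 5472, 6122 and 6068 in treated ones, 4831, 6008 and 6239 in mixed vehicle tumours and 6852, 8005 and 7779 in mixed treated ones. Vehicle values of A375R alone lay above both the treated ones and the mixed vehicle ones, and within mixed tumours the treated values lay above vehicle. The difference of the responses (mixed minus alone) was 0.83 ± 0.17 (limma adjusted p = 0.0227; background 0.974% lower and 1.91% higher), and it passed in 14 of 20 alternatives, with adjusted p from 3.81e-04 to 0.0795. It failed without vehicle replicate 1 or 3 or drug replicate 2 of A375R alone, and without vehicle replicate 1 or drug replicate 2 or 3 of the mixed tumours. Under vehicle NOB1 was lower in mixed tumours than in A375R alone (-0.47 ± 0.12, limma adjusted p = 0.0417; background 1.37% lower and 1.93% higher), which passed in 12 of 21 alternatives, with adjusted p from 0.00663 to 0.220. It failed with no filter, with quantile normalisation, with edgeR, with these 2 groups alone, without vehicle replicate 1 or 3 or drug replicate 2 or 3 of A375R alone, and without vehicle replicate 1 of the mixed tumours. SOX10 stood at 508 to 1021 in vehicle mixed tumours and 55.8 to 129 in vehicle tumours of A375R alone, and its part in the NOB1 difference was not tested. The summed leukocyte markers, with 3 of 6 genes at a mean of 10 or more, were 7573 to 9756 in vehicle tumours of A375R alone, 3834 to 5983 in treated ones, 3403 to 5039.5 in mixed vehicle and 5104 to 8291 in mixed treated tumours. Like NOB1 they were higher in vehicle tumours of A375R alone than in the treated ones or the mixed vehicle ones, and higher in mixed treated than in mixed vehicle tumours, in each case without overlap. Most of this leukocyte sum was CD68, which vehicle A375 cultures also listed, so it is not a measure of leukocytes alone. The summed fibroblast markers, with 6 of 6 at that mean, were 1285 to 1540.4, 2527 to 3346, 1236 to 2079.9 and 2971 to 3212 in the same order of groups, and the endothelial markers 36.9 to 64.3, 40.2 to 64.9, 22.8 to 34.6 and 26.5 to 79.5. The part of these markers in the NOB1 values was not tested. Under vemurafenib limma called no member between the kinds (background 0.0291% lower and 0.211% higher), with 4 lower and 2 higher at an unadjusted p under 0.05 against 6% and 6.38% of all genes, and edgeR and DESeq2 called 0. The lowest estimates there were POLR1A (-0.35), EBNA1BP2 (-0.32) and UTP20 (-0.32), and the highest NPM1 (0.40), NOB1 (0.36) and FBL (0.23). Under vehicle the highest were POLR1A (0.18), RRP12 (0.15) and NOLC1 (0.10), with NPM1 (-0.47) and FBL (-0.39) beside NOB1 at the low end.

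NPM1 and FBL had estimates of the same sign for the difference of responses that limma did not call, at 0.87 ± 0.24 (limma adjusted p = 0.0605) and 0.62 ± 0.18 (adjusted p = 0.0754). For NPM1 it was 0.06 under quantile normalisation. POLR1A (-0.52), UTP20 (-0.34) and NOLC1 (-0.29) were lowest, and none passed. NPM1 passed with edgeR (adjusted p = 0.0433) and DESeq2 (0.00164), and FBL with DESeq2 (0.0191). Cytosolic ribosomal protein genes gave 0.85 at the median, with 23 of 78 called higher (0.08 and 1 of 78 under quantile normalisation), and under vehicle 14 of 78 were lower in mixed tumours (0 of 78 under quantile normalisation). Their share of reads was 26.9% to 29.0% in vehicle A375R alone, 22.0% to 24.3% treated, 19.9% to 25.7% in vehicle mixed and 25.5% to 27.0% in treated mixed tumours. That share, like NOB1, lay above the other vehicle group and above the treated group in vehicle tumours of A375R alone, and its part in the NOB1 values was not tested. The median difference of responses over the 43 members was -0.02. These 4 groups share their vehicle libraries across comparisons, so the comparisons are not independent.

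Genes of the pathway outside the 43 were counted from a separate list of 113. In A375 at 48 h, 87 of 113 fell and 0 rose (background 25.6% lower and 24.3% higher), with a median of -0.72. BRIX1, a large subunit factor, changed by -1.74 ± 0.11, TCOF1, treacle, a partner of RNA polymerase I, by -1.68 ± 0.16, and RUVBL1, an ATPase that assembles the modification particles, by -1.21 ± 0.10. At 6 h 3 of 113 were called, all lower: BRIX1 (-0.67), CD3EAP (-0.58), an RNA polymerase I subunit, and TEX10 (-0.49), of the large subunit. That count is near the background of 3.33% of all genes lower. Colo800 gave 90 lower and 4 higher, UACC62 82 and 2, H3122 73 and 4, and A375 tumours 77 and 16. The backgrounds were 37.3% lower and 36% higher, 29.6% and 26.9%, 24% and 22.1%, and 34% and 34.2%, in the same order. In A375R tumours 1 was called lower with A375R alone (background 0.487% lower), and 2 were called higher with mixed tumours (background 1.24% higher). Both counts are near their backgrounds.

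In A375 tumours, of the 13 genes of the RNA polymerase I machinery outside the 43, 5 fell and 5 rose. Both counts are near the background of 34% lower and 34.2% higher. Of the large subunit genes 32 of 46 fell and 6 rose, and of the small subunit genes 34 of 45 fell and 4 rose. Higher among the 13 were PTRF (1.27 ± 0.10), known for transcript release and for caveolae, and the polymerase subunits POLR1E (0.98 ± 0.08) and POLR1D (0.39 ± 0.07). All 4 member genes of that machinery fell. In A375 culture at 48 h 6 of these 13 fell and 0 rose (background 25.6% lower and 24.3% higher). The difference between these counts was not tested.

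MYC, which activates biogenesis genes, changed by -2.09 ± 0.40 in A375 at 48 h, -3.93 ± 0.09 in Colo800, -3.50 ± 0.15 in UACC62 and -1.17 ± 0.12 in A375 tumours, all passing. In H3122 it rose (0.61 ± 0.08, limma adjusted p = 1.35e-04), at 2113 to 2246 normalised reads in vehicle and 3182 to 3477 under crizotinib, while 33 members fell. The 14 proliferation genes fell in all of A375 at 48 h, Colo800, UACC62 and A375 tumours, and 12 of 14 in H3122. MKI67 changed by -3.24 ± 0.30 in A375 at 48 h and -0.39 ± 0.10 in H3122. In A375 tumours the summed leukocyte markers were 624 to 822 normalised reads in vehicle and 658 to 1036 under the drug, and the endothelial markers 16.3 to 28.9 and 16.5 to 39.4. The summed fibroblast markers were 1125 to 1555 normalised reads in vehicle A375 tumours and 845 to 1014 in treated ones, and the melanocytic list 1201 to 1777 and 9261 to 10657. The part of any of these in the members' changes was not tested.

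Promoter sequence was looked at as well. Members were taken by symbol, but MYC is known to activate biogenesis genes, so the choice of genes is not independent of this feature. The E-box CACGTG, a palindrome and so the same on both strands, is the site bound by MYC and related factors. RefSeq promoter windows on GRCh38.p14, from 250 bases before to 50 bases after an annotated start, were found for 36 of the 43 members, some with more than 1 start. A CACGTG lay in a window of 17 of these 36 (47.2%), and of 2396 of all 27305 genes with a window (8.77%). These 27305 genes were not limited to those tested for expression, and promoters of like base content were not compared. Counted by window, it lay in 18 of 45 (40%), and in 2548 of all 35116 windows (7.26%). Members with a match were MRTO4, GNL2, EBNA1BP2, WDR43, RRP9, GNL3, NOP14, LYAR, GAR1, BYSL, LTV1, DDX21, NOC3L, NOP2, UTP20, FBL and PES1. The 100 bases before the start are shown, with any E-box in capitals, for LYAR and NOP16, the lowest changes in A375 at 48 h, and for NOB1, the one member not called there. LYAR has 2 annotated starts, of which the one with a match is shown, and the window of the other holds none; NOP16 and NOB1 have no match.
LYAR, chr4:4290022-4290121, minus strand: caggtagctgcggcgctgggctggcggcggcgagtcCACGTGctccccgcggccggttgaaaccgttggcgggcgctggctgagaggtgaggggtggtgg
NOP16, chr5:176388599-176388698, minus strand: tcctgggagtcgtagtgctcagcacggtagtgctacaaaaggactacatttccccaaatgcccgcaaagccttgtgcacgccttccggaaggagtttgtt
NOB1, chr16:69754927-69755026, minus strand: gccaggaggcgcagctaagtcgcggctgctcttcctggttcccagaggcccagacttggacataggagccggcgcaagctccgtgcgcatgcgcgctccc
In LYAR the E-box begins 64 bases before the start shown. DKC1, next lowest in A375 at 48 h, has no match either.

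Other members had the E-box at or near the start, as these 30-base stretches with the E-box in capitals show for genes of several roles. GNL3 has 2 annotated starts, and the window of its other start holds no match.
RRP9, chr3:51941892-51941921, minus strand: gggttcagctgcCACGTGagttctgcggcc
UTP20, chr12:101280083-101280112, plus strand: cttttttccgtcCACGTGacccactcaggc
WDR43, chr2:28894658-28894687, plus strand: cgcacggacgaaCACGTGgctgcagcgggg
BYSL, chr6:41921515-41921544, plus strand: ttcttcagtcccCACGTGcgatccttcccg
FBL, chr19:39846356-39846385, minus strand: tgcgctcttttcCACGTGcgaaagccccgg
GNL3, chr3:52686026-52686055, plus strand: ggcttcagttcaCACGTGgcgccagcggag
PES1, chr22:30591880-30591909, minus strand: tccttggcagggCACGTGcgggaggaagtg
The E-box begins 5 bases before the start in RRP9, 10 before it in UTP20, and 3, 28, 6, 6 and 13 bases after it in WDR43, BYSL, FBL, GNL3 and PES1. Median changes of members with and without a match are given as a description: in A375 at 48 h they were -1.02 (17 genes) and -0.98 (19 genes), in Colo800 -0.84 and -0.65, in UACC62 -1.09 and -1.10, and in H3122 -0.43 and -0.36. In A375 tumours the medians were -0.63 with a match and -0.51 without. Of the members that rose there, FBL has an E-box, and NPM1 and NOB1 have none in their windows. A match is a description of letters in a window and not evidence of binding.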

How the data were processed

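RNA sequencing values of 41 samples in 15 groups came as 6 tables with 1 value per gene symbol and library. Each value is a signal, read counts that the authors divided by a size factor per library. The deposited tables gave whole reads again in 100% of values within a tolerance of 0.1. The submitters' processing notes name the tools HTSeq 0.5.4, STAR 2.3.0e and DESeq 1.18.0 and, as builds, mm9 and hg19. Their roles are not given in the sources used here. Per the labels' protocols libraries were made with a TruSeq kit that does not mark strand. Depth was 8063754 to 42843612 reads per library, and deeper libraries have smaller counting error.

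Tests ran within a table: limma 3.58.1 (R 4.3.3) with its trend option, fitted to log2(value + 1) for genes averaging at least 10 and using every group of that table, with two-sided p adjusted by Benjamini-Hochberg over all genes tested and a threshold of 0.05. Log2 changes on this scale understate those of low genes. Scripts were tested on simulated data. Members and lists were chosen with earlier results of these data known. Named members are the largest and smallest changes per role in A375 at 48 h, the 3 lowest and 3 highest in other comparisons, members called against the majority, and NCL, NPM1, FBL, NOP56 and POLR1B. Others are named as examples chosen after their values were seen.

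Settings changed in turn were the pseudocount (0.5 and 5), the filter (none, or 50), the scaling (quantile normalisation), a block on replicate number, fitting 2 groups alone, leaving out each library, and the tool: edgeR 4.0.16 and DESeq2 1.42.0 on the recovered reads. Replicate numbers pair A375 vehicle with 6 h libraries (correlations of deviations from group means 0.567, 0.310 and 0.566) and 6 h with 48 h (0.436, 0.197 and 0.410). Vehicle with 48 h fell short (0.402, 0.0280 and 0.320), and no other table showed such pairing. Promoter windows are RefSeq's on GRCh38.p14.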

Additional observations from a re-analysis of the deposited data

Results flagged for a closer look

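Single tumours stood far from the rest of their group of 4 for a few members, with a gap to the nearest other tumour that exceeded the 95% limit of Dixon's test. HEATR1 had its lowest vehicle tumour at 1097 normalised reads and its lowest vemurafenib tumour at 871. NOC2L had its highest vehicle tumour at 2016. RRN3 had its highest treated tumour at 739.8 and EBNA1BP2 its highest treated tumour at 1076. These are 5 of 88 groups examined, and chance flags about 1 in 20.

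The response of NOB1 to vemurafenib differed between mixed tumours and A375R alone by 0.83 (log2, limma adjusted p = 0.0227). It lost this call when any of several single tumours was left out. As 1 call among 43 members, it is near the background of 0.974% of all genes lower and 1.91% higher. RRN3 was called higher in Colo800 and lower in A375 at 48 h, and was not called in UACC62. Every treated library lay above vehicle in Colo800 and UACC62 and below it in A375 at 48 h. The Colo800 and UACC62 estimates were apart from that of A375 by 0.78 and 0.62, and this was not tested. NPM1 lay above vehicle in every treated A375 tumour and below it in every A375 culture at 48 h, the estimates being apart by 0.97, which was not tested either; under quantile normalisation the tumour estimate was -0.20.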

How the results depend on the processing

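Counts of members called stayed within 1.5 times of the main count in 216 alternatives and moved further in 32. In A375 at 6 h the count was 6 with the replicate block, 4 with DESeq2 and 0 to 2 leaving out 1 library. H3122 gave 22 to 33 leaving out 1 library, and A375R alone 2 with DESeq2 and 2 with 2 groups alone. Mixed tumours gave 2 with DESeq2 and 0 to 1 leaving out 1 library, the 1 being FBL without mixed vehicle replicate 2. For mixed against alone under vehicle the count was 0 with no filter, 0 with quantile normalisation, 0 with edgeR, 2 with DESeq2, 0 with 2 groups alone and 0 to 2 leaving out 1 library. The difference of responses gave 2 with edgeR (NOB1 and NPM1), 3 with DESeq2 (FBL besides) and 0 to 3 leaving out 1 library. The causes were not tested.

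The members lower in all 5 comparisons were 30, and 20 to 30 over the alternatives, 20 without H3122 crizotinib replicate 2, 22 without replicate 1 and 21 with quantile normalisation. NPM1 in A375 tumours reversed to -0.20 under quantile normalisation. The block changed no other count by over 1.5 times; crossing the H3122 numbers, which correlated at -0.209, was tried after seeing the data and gave 34 lower and 1 higher. Over all genes, mixed against alone under vemurafenib gave 29 genes higher and 4 lower, with edgeR 10 genes higher and 3 lower and with DESeq2 111 genes higher and 40 lower; A375 at 6 h gave 148 genes higher and 460 lower, and with the block 538 genes higher and 924 lower.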

Other observations

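BOP1 and PPAN counted far fewer reads in the tables that list 23368 genes than in the A375R table, which lists 21595. BOP1 stood at 57.9 to 80.1 normalised reads in vehicle A375 tumours and 2337 to 2762 in vehicle tumours of A375R alone, and PPAN at 56.1 to 73.3 and 253 to 266. The tables were normalised separately and list different numbers of genes, so these levels are not a comparison of the tumours.

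NPM1 held 47.5% to 52.4% of the members' reads in vehicle tumours of A375R alone and 39.6% to 43.6% in treated ones. Without NPM1 the other 42 members took 0.363% to 0.396% of reads in vehicle and 0.425% to 0.477% under vemurafenib, so the treated libraries lay above the vehicle ones, whereas in mixed tumours the ranges were 0.401% to 0.418% and 0.388% to 0.408%. This was seen after the share of all 43 had been computed and was not tested. A share is relative to all reads of a library. Cytosolic ribosomal protein genes held 26.9% to 29.0% of reads in vehicle tumours of A375R alone and 22.0% to 24.3% in treated ones. Their part in the difference between these member shares was not tested.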
